A study of Mus musculus with 2 samples.

Results

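The genes described here are 10 genes of renal calcium transport and of the hormones that set calcium, magnesium and phosphate balance. They were taken by name, by matching the gene identifiers of the deposited gene tables to mouse gene symbols. All 10 were matched, among 43346 genes and 21474 protein-coding genes in the tables. The tissue was whole kidney of Mus musculus embryos of strain B6NCrl at embryonic day 14.5, with no treatment or genetic change named in the labels. There was 1 group of 2 libraries, biological replicates 1 and 2, each labelled as the 2 kidneys of 1 pup, and the collections were 2 days apart. Both carry the same donor identifier and the same pup and dam numbers. The labels give the sex as pooled although they name 1 pup per library. Total RNA longer than 200 nt was sequenced from 10 ng with added spike-in RNA. With a single group the data hold no comparison between conditions, so levels and the spread between replicates are reported without a test.

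The kidney recovers filtered calcium along the nephron, and in the late distal segments it does so through the cells. Calcium enters from the tubule fluid through the channels TRPV5 and TRPV6, is carried by the binding proteins calbindin-D28k (Calb1) and calbindin-D9k (S100g), and leaves on the blood side through calcium pumps and the sodium-calcium exchanger. Parathyroid hormone acts through its receptor PTH1R. Active vitamin D is made by the enzyme encoded by Cyp27b1 and broken down by that encoded by Cyp24a1, and klotho (Kl) is the co-receptor through which the bone hormone FGF23 acts on the kidney. At this embryonic age the ureteric tree is branching and nephrons are starting to form, and the placenta serves the mineral balance of the fetus.

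The stretch of DNA just before the start of a transcript is shown for 3 of the 4 genes above 1 TPM (transcripts of the gene in a fixed total of transcripts, a level corrected for transcript length) in both libraries. These are S100g and Trpv6, which vitamin D is known to induce in the intestine, and Pth1r, whose reads were assigned to a pair of transcripts with different starts. The windows come from the RefSeq promoter table on build GRCm38.p6, are on the minus strand, are written 5′ to 3′, and stop at the base before the annotated exon. Capitals mark every AGGTCA, the hexamer bound by nuclear receptors such as the vitamin D receptor, or its complement TGACCT, both strands having been searched. The windows are chrX:162964600-162964849 for S100g, chr6:41636406-41636655 for Trpv6, chr9:110743687-110743936 for the start of transcript Pth1r-202 and chr9:110742720-110742860 for that of Pth1r-201.
S100g-201: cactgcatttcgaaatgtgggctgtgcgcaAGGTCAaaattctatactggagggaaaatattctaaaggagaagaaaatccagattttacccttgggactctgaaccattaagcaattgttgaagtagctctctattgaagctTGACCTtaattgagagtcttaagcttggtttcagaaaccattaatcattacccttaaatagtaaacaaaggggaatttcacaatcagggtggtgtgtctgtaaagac
Trpv6-201: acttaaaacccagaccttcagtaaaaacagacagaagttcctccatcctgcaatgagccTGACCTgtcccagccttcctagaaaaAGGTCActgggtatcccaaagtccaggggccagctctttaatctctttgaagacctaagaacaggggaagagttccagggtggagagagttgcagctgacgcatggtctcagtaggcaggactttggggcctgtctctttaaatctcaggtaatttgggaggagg
Pth1r-202: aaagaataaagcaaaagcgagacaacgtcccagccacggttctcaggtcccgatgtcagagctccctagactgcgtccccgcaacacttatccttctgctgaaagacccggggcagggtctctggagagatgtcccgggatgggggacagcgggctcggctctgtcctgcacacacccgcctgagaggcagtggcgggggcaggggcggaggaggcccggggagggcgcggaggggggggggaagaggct
Pth1r-201: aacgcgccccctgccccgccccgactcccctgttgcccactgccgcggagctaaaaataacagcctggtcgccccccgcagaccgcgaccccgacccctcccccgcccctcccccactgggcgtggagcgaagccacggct
The S100g window held the hexamer at positions -220 and -107 before the start, and the Trpv6 window at -191 and -165. Among 32851 mouse promoter windows of 250 bases, 14% held at least 1 copy and 1.34% at least 2. In the S100g and Trpv6 windows the copies stood in opposite orientation to each other. Neither Pth1r window held the hexamer, nor did the 250-base windows of Casr, Cyp27b1, Kl, Trpm6 and Trpv5. No window was available for Calb1 or Cyp24a1. These letters alone show neither binding nor its absence. The windows shown also differed in base composition. S100g had 38.4% G and C with 2 CpG dinucleotides, and Trpv6 had 49.6% with 1. Pth1r-202 had 65.6% with 16 and the shorter Pth1r-201 window of 141 bases had 73.8% with 15. The median of all 250-base windows was 52.4% with 6 CpG.

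Trpv5 and Trpv6 are neighbouring paralogs, and their closest coding stretch is shown because reads from such a stretch can be shared between the genes. The windows are 119 coding bases on GRCm38 at chr6:41674923-41675311 for Trpv5 and chr6:41626491-41626907 for Trpv6, each spanning exons 4 and 5 of 15 with the intron left out. Capitals mark the run that is identical in both.
Trpv5: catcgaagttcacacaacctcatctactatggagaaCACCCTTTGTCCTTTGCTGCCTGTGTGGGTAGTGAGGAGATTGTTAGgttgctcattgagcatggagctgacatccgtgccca
Trpv6: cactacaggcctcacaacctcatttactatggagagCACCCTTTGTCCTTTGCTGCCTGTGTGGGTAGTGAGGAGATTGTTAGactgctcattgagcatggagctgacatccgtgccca
The identical run is 47 bases long, and 11 bases differ in the rest of the window. Over 2148 aligned coding bases the genes were 76.2% identical, and no stretch of 100 coding bases occurred in both without a mismatch. The genes lie on the same strand, 15767 nt apart.

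Both libraries were of similar depth, with 29718428 and 29204212 expected counts (reads assigned to features by a probabilistic model), of which 28429080 and 27758872 lay on genes. Across the protein-coding genes log2(TPM + 1) of the libraries correlated with a Pearson r of 0.990, a description across genes that are not independent replicates. All 10 kidney markers examined, among them Pax2, Pax8, Six2 and Wt1, were above 1 TPM in both libraries. All 11 markers of the ureteric tree and collecting duct passed as well, with a summed level of 607 and 476 TPM. None of 6 parathyroid and thyroid markers did, and their sums were 0.19 and 0.85 TPM. None of 6 adrenal and gonad markers passed, with 1 of 8 for bone and cartilage (Col2a1, a cartilage collagen, at 18.97 and 10.14 TPM) and 4 of 6 for liver (summed level 32.94 and 20.77 TPM, mostly the fetal protein gene Afp).

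Of the 10 genes, 4 reached 1 TPM in both libraries: Calb1, S100g, Pth1r and Trpv6. Kl did so in replicate 1 alone, and Trpm6, Cyp27b1, Casr, Cyp24a1 and Trpv5 stayed under 1 TPM in both. By the same rule 59.0% of all protein-coding genes were detected. The summed level of the 10 genes was 234 and 227 TPM, and Calb1 made up 72.0% ± 2.58 (SD, n = 2) of it. Calb1, S100g and Pth1r together made up 98.2% ± 0.428 (SD, n = 2). The tissue was measured in bulk, so fewer cells of a type and less RNA per cell cannot be told apart for any of these genes.

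**Figure D1:**
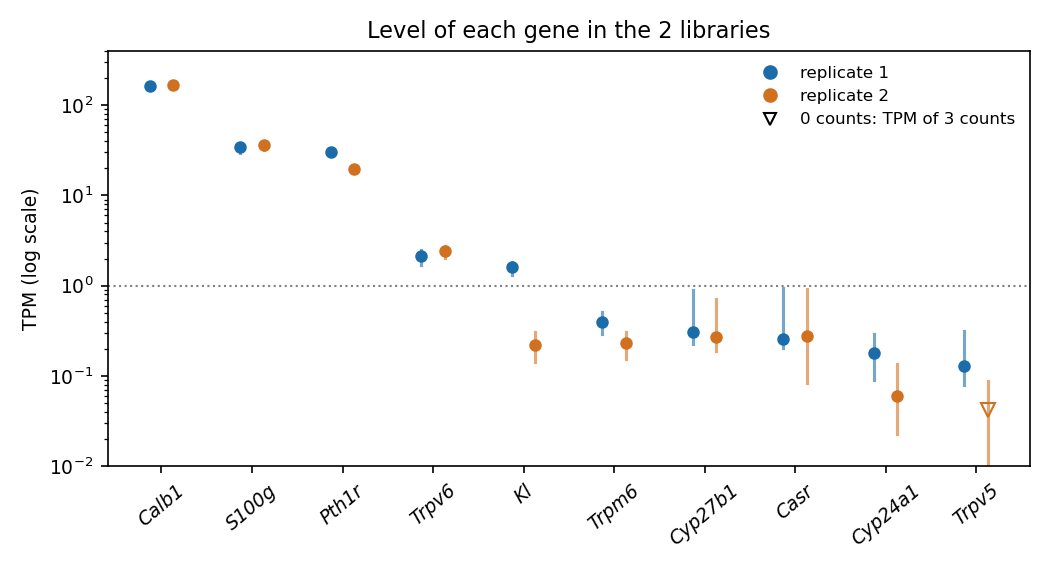
Level of each of the 10 genes in TPM (log axis) in replicate 1 (blue) and replicate 2 (orange), ordered by mean. Bars are the interval deposited for each estimate within 1 library, the dotted line is 1 TPM, and the open triangle stands for 3 counts of Trpv5 in replicate 2, where 0 were counted. Calb1 stands above 160 TPM in both libraries and 5 genes stay below the line in both.

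The calcium-binding proteins were the most abundant of these transcripts. Calb1 (chromosome 4, bases 15881264 to 15908064, plus strand) was at 164.16 TPM in replicate 1 and 167.65 TPM in replicate 2, a mean of 166 ± 2.47 (SD, n = 2), from 11383 and 13164 expected counts. It ranked 816 among the 21474 protein-coding genes by mean TPM. S100g (chromosome X, bases 162961992 to 162964599, minus strand) was at 34.30 and 36.48 TPM, a mean of 35.4 ± 1.54 (SD, n = 2), from 255 and 313 counts. The levels of both genes were close in the libraries, and the ranges of the genes did not overlap. The TPM ratio of Calb1 to S100g was 4.79 in replicate 1 and 4.60 in replicate 2. S100g lies inside the span of Ctps2, a gene of CTP synthesis on the opposite strand at 79.75 and 56.81 TPM, but no exon base is shared between the genes.

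Most Calb1 reads were assigned to the coding transcript Calb1-201 of 4222 nt, with 97.2% and 96.9% of the gene's counts. Because TPM is a level per length, Calb1-202, a 701-nt transcript annotated as a retained intron, took 14.70% and 16.39% of the gene's TPM from 2.49% and 2.83% of its counts. Its deposited intervals ran from 17.0 to 30.5 TPM in replicate 1 and from 21.3 to 33.1 TPM in replicate 2. The coding transcript alone was at 137.58 and 137.32 TPM. S100g has a single annotated transcript of 480 nt.

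The distal calcium channels were low, and their levels were unequal. Trpv6, the channel shared with intestine and placenta (chromosome 6, bases 41620624 to 41636405, minus strand) was at 2.11 and 2.42 TPM, a mean of 2.27 ± 0.219 (SD, n = 2), from 116 and 154 counts. Trpv5, the channel largely restricted to the kidney (chromosome 6, bases 41652173 to 41680769, minus strand) was at 0.13 TPM from 8 counts in replicate 1 and had 0 counts in replicate 2. A count of 0 there allows up to 3 counts, or 0.0424 TPM. The TPM ratio of Trpv6 to Trpv5 was 16.2 in replicate 1. In replicate 2 it was at least 57.1 by the limit of 3 counts, and at least 27.5 by the upper end of the deposited Trpv5 interval, 0.0880 TPM. Trpv6-201, whose annotated coding sequence opens with the codon ACG instead of ATG, took 96.73% and 98.69% of the gene's TPM. All expected counts of both genes were whole numbers, with no fraction divided between the paralogs at the gene level. Trpv6 ends 114 nt from Ephb6, an ephrin receptor gene on the other strand at 9.38 and 6.94 TPM, and shares no exon base with it.

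Trpm6, the magnesium channel of the distal convoluted tubule (chromosome 19, bases 18749983 to 18892511, plus strand), was at 0.40 and 0.23 TPM, from 50 and 33 counts. Its 95% exact Poisson intervals were 37.1 to 65.9 counts in replicate 1 and 22.7 to 46.3 in replicate 2, so the counts of the libraries were within counting error of each other. The tables hold only 1 of the 4 Trpm6 transcripts of the later annotation release used for names.

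Among the receptors, Pth1r was abundant and Casr was near the limit of detection. Pth1r, the receptor for parathyroid hormone and its related peptide (chromosome 9, bases 110722085 to 110747145, minus strand), was at 30.40 and 19.42 TPM, a mean of 24.9 ± 7.76 (SD, n = 2), from 1263 and 931 counts. The TPM range of Pth1r lay below that of S100g and above that of Trpv6 without overlap, but the deposited intervals of Pth1r and S100g overlapped in replicate 1. Transcript Pth1r-202, which starts 967 nt further upstream, took 72.34% and 73.08% of the gene's TPM, and Pth1r-201 the remaining 27.66% and 26.92%. The split between these transcripts therefore differed by less than 1 percentage point while the level differed 1.57-fold in TPM and 1.32-fold in counts per count on genes. RefSeq also gives a Pth1r start further upstream, at base 110747145, where neither of the 2 transcripts begins. The split is an assignment of reads between 2 annotated transcripts and does not measure the use of start sites. The later annotation release lists 6 Pth1r transcripts, of which the tables hold these 2. Pth1r shares 95 exon bases with Myl3, a myosin light chain gene on the opposite strand, which had 15 and 5 counts.

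Casr, the calcium-sensing receptor (chromosome 16, bases 36493696 to 36562141, minus strand), was at 0.26 and 0.28 TPM, although the libraries held 21 and 8 counts. The near-equal TPM came with a different assignment of these few counts to transcripts in each library. In replicate 1, 80.08% of the TPM was assigned to Casr-202 from 17.35 counts, and the gene had a mean length of 4175 nt. In replicate 2, 76.69% was assigned to Casr-204, a processed transcript of 400 nt, from 1.46 counts, and the mean length was 1364 nt. The coding transcript Casr-201 of 4534 nt held the other 6.54 counts there, 81.75% of the gene's counts but 23.31% of its TPM. The deposited intervals of the Casr level, 0.202 to 0.948 TPM and 0.0828 to 0.915 TPM, overlapped over most of their range. Pth1r exceeded Casr by a TPM ratio of 117 and 69.4 in the libraries.

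**Figure D2:**
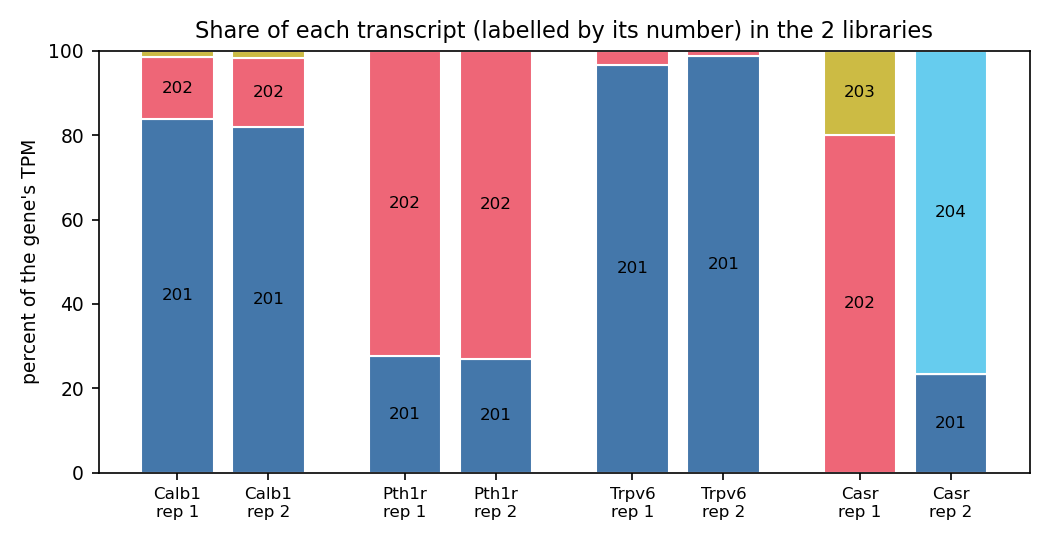
Percent of each gene's TPM assigned to its annotated transcripts in replicates 1 and 2, for the 4 genes with reads on more than 1 transcript. Bars reach 100 and the labels are transcript numbers. The split of Calb1, Pth1r and Trpv6 is alike in the libraries, while no Casr transcript carries reads in both.

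The vitamin D enzymes were both under 1 TPM. Cyp27b1, the 1-alpha-hydroxylase that makes the active hormone (chromosome 10, bases 127048250 to 127053006, plus strand), was at 0.31 and 0.27 TPM from 14 counts in each library. Its deposited posterior mean TPM was higher, at 0.52 and 0.43, and its deposited intervals ran from 0.228 to 0.907 TPM and from 0.190 to 0.718 TPM. Its neighbour Mettl1, an RNA methyltransferase gene that ends 1884 nt before Cyp27b1 on the same strand, was at 53.97 and 57.86 TPM. Cyp24a1, the 24-hydroxylase that inactivates the hormone (chromosome 2, bases 170482708 to 170497145, minus strand), was at 0.18 and 0.06 TPM from 12 and 5 counts. Cyp24a1 shares 83 exon bases with Pfdn4, a prefoldin subunit gene on the opposite strand with 1009 and 1687 counts. No source used here says whether reads were counted by strand, so reads of Pfdn4 within the shared bases and reads of Cyp24a1 cannot be told apart. The TPM ratio of Cyp24a1 to Cyp27b1 was 0.581 and 0.222, from these few counts.

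Kl, the klotho gene (chromosome 5, bases 150952607 to 150993817, plus strand) differed most between the libraries among the genes with counts in both. It was at 1.61 TPM from 157 counts in replicate 1 and at 0.22 TPM from 25 counts in replicate 2. Replicate 1 was 7.32-fold higher in TPM and 6.13-fold higher in counts per count on genes, with a 95% interval of 4.0 to 9.76 for counting error. The mean of 0.915 ± 0.983 TPM (SD, n = 2) therefore describes neither library. Klotho is known mainly from the distal convoluted tubule and also from the proximal tubule. The summed level of the 8 proximal tubule markers was 48.85 and 23.38 TPM, 2.09-fold higher in replicate 1, and that of the 6 loop of Henle markers was 34.74 and 16.14 TPM, 2.15-fold higher in replicate 1. The 7 distal tubule markers summed to 102.56 and 93.90 TPM, 1.09-fold higher in replicate 1, with 6 of them detected in both libraries. That sum rests on the kinase gene Wnk1, at 45.89 and 55.23 TPM; without it, an alternative chosen after seeing the data, the other 6 markers summed to 56.67 and 38.67 TPM, 1.47-fold higher in replicate 1. Of the defining transporters, the loop cotransporter Slc12a1 was at 16.83 and 6.0 TPM and the proximal phosphate cotransporter Slc34a1 at 21.33 and 7.97 TPM. The distal cotransporter Slc12a3 was at 0.11 and 0.10 TPM, and the proximal androgen-regulated gene Kap had 0 counts in both libraries. The proximal marker Aqp1 went the other way, at 2.17 TPM in replicate 1 and 4.15 TPM in replicate 2. The largest terms of the proximal sum were Slc34a1 and Lrp2, the latter at 10.72 and 4.11 TPM. Among markers with a mean of at least 1 TPM, 6 of 7 proximal, 6 of 6 loop and 4 of 6 distal markers were lower in replicate 2. So were 76.3% of all detected protein-coding genes. The part of these cell types in the Kl difference was not tested.

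In order of level, the TPM ranges of neighbouring genes did not overlap from Calb1 through S100g, Pth1r and Trpv6 to Kl. The deposited intervals of S100g and Pth1r did overlap in replicate 1, at 29.4 to 37.6 and 28.0 to 31.2 TPM. Those of Trpv6 and Kl overlapped there too, at 1.71 to 2.47 and 1.33 to 1.82 TPM. In replicate 2 neither pair of intervals overlapped, so replicate 1 alone does not resolve the order within these pairs. Kl, Trpm6, Cyp27b1 and Casr each overlapped the next gene below within that run, so their order is not resolved by these libraries. The TPM of Casr lay above that of Cyp24a1 without overlap, but the deposited intervals of these genes overlapped in both libraries. In replicate 1 they ran from 0.202 to 0.948 TPM for Casr and from 0.0898 to 0.289 TPM for Cyp24a1. In replicate 2 they ran from 0.0828 to 0.915 TPM and from 0.0231 to 0.136 TPM. The order of Casr and Cyp24a1 is therefore not resolved either, and Cyp24a1 and Trpv5 overlapped in TPM. By the closest profile of log2(TPM + 1) over the 2 libraries, the protein-coding genes nearest to Calb1 were Suclg1, Timm17a and Hnrnpdl. Those nearest to S100g were Cop1, Nemf and Akr1e1, and those nearest to Pth1r were Csnk1g3, Plekhf2 and Vps50. With 2 libraries this measure compares abundance alone. Suclg1, for example, was at 161.64 and 168.97 TPM.

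The difference between the libraries was larger than counting error for 7 of the 10 genes, 3 with a ratio above 1 and 4 below. Among the 17183 protein-coding genes with at least 1 count the same held for 58.5%, with 22.4% above and 36.2% below, so most genes differed by this measure. Calb1, S100g and Trpv6 had more counts per count on genes in replicate 2, with ratios of 1.18 (95% interval 1.15 to 1.21), 1.26 (1.06 to 1.49) and 1.36 (1.06 to 1.75). Pth1r had fewer, with a ratio of 0.755 (0.693 to 0.822), as did Casr at 0.390 (0.149 to 0.917) and Kl at 0.163 (0.102 to 0.250). For Trpv5 the 0 counts of replicate 2 put the upper bound of the ratio at 0.600. The intervals of Trpm6, Cyp27b1 and Cyp24a1 included 1. These intervals come from an exact binomial method and cover counting error only, since reads without molecular identifiers are not independent molecules.

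**Figure D3:**
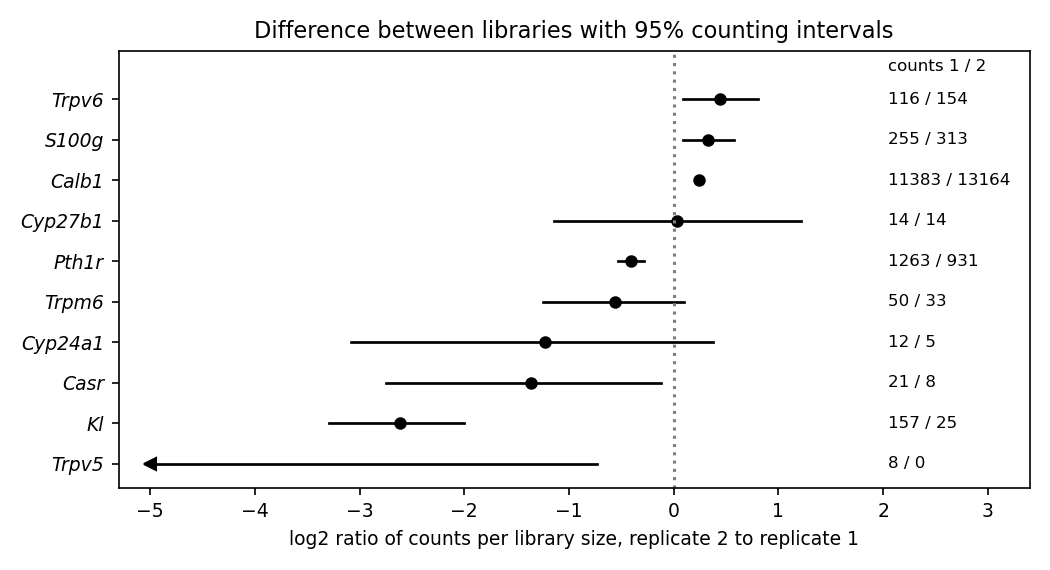
Ratio of replicate 2 to replicate 1 in counts per count on genes (log2 axis) for each gene, with 95% exact intervals for counting error and the counts of both libraries at the right. The arrow marks Trpv5, with 0 counts in replicate 2. Calb1, S100g and Trpv6 lie to the right of 0 and Pth1r, Casr, Kl and Trpv5 to the left with their whole interval.

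By a rule of size, a gene stood apart between the libraries when log2 of the ratio of (TPM + 1) was 1 or more in either direction with at least 5 TPM in the higher library. None of the 10 genes did, against 2.10% of protein-coding genes lower in replicate 2 and 0.233% higher. Only Calb1, S100g and Pth1r reached 5 TPM in a library, so the rule could not call the other genes, Kl among them. Without the floor of 5 TPM, Kl alone passed, lower in replicate 2. The shares of protein-coding genes by that looser rule were 2.32% lower and 0.279% higher. This rule involves no test, since 1 library stands on each side.

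The difference between the libraries also varied with transcript length across all genes. Among 12669 detected protein-coding genes 76.3% had a lower TPM in replicate 2, with a median log2 TPM ratio of -0.32. The median was 0.18 for genes under 1000 nt, -0.39 for those from 2000 to 3000 nt and -0.65 for those from 4000 to 6000 nt. S100g, the shortest gene of the set, had a ratio of 0.09, above 34.9% of the 1123 detected genes under 1000 nt. Pth1r at -0.65 was above 20.8% of the 3315 genes from 2000 to 3000 nt, and Trpv6 at 0.20 was above 93.4% of the same genes. Calb1 at 0.03 was above 91.6% of the 2158 genes from 3000 to 4000 nt, whose median was -0.57. The near-equal TPM of Calb1 and Trpv6 thus stood toward the upper end of genes of their length, and the ratio of Pth1r lay within the middle 90% of its class, from -0.93 to 0.26. The raw ratio of Kl was -2.87 against a median of -0.65 for detected genes of its length. The part of length in these differences was not tested.

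**Figure D4:**
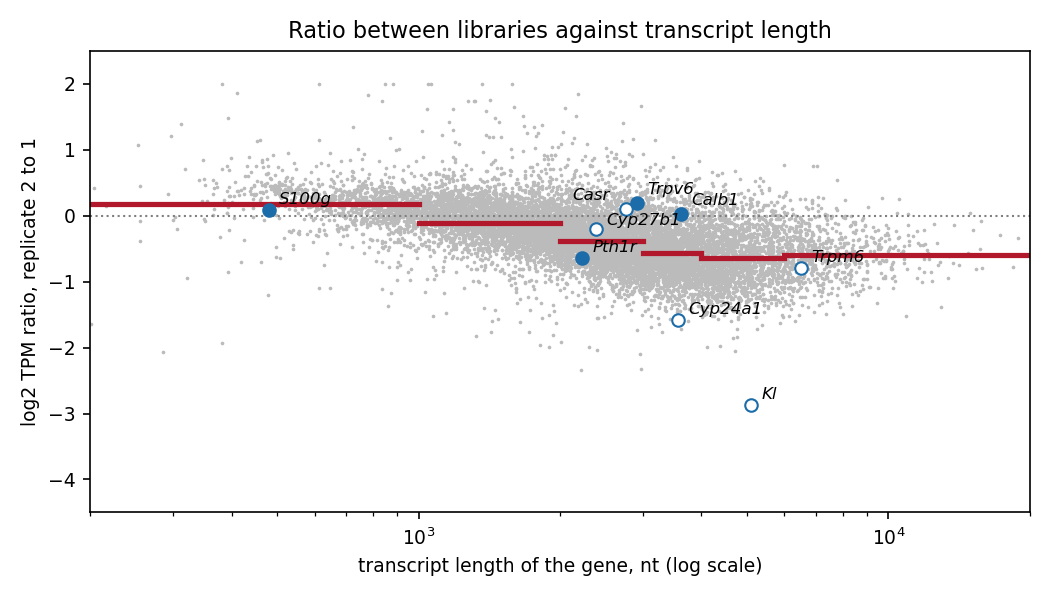
Log2 TPM ratio of replicate 2 to replicate 1 against transcript length (log axis). Grey points are detected protein-coding genes, with ratios above 2 drawn at 2, red lines are medians of length classes, filled circles are genes of the set detected in both libraries and open circles those under 1 TPM in at least 1 library. Trpv5 is not drawn. Kl lies far below the median line of its class, and Calb1 and Trpv6 lie above theirs.

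The partners of these genes in the same pathways were looked at in 9 lists of 94 genes. The lists were drawn up by role, and a few genes also stand in the marker lists above, such as Slc34a1, Lrp2 and Cldn10. Of the 94, 67 (71.3%) were detected in both libraries, against 59.0% of all protein-coding genes. The median of the mean levels of the 94 was 7.72 TPM against 4.20 TPM for all protein-coding genes. By the rule of size 4 of the 94 were lower in replicate 2 and 0 were higher, against 2.10% and 0.233% of protein-coding genes. The 4 were Lrp2 and Fgfr2, and the phosphate transporters Slc20a1 and Slc34a1. Over genes with a mean of at least 1 TPM, the median log2 ratio was -0.39 for those among the 94 and -0.29 for protein-coding genes.

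For calcium leaving the cell, the plasma membrane pump Atp2b1 was at 36.47 and 32.76 TPM and the pump Atp2b4 at 7.39 and 3.84 TPM. The sodium-calcium exchanger Slc8a1 was at 11.14 and 5.69 TPM, and its relative Slc8a2 at 0.19 and 0.16 TPM. Atp2b1, Atp2b4 and Slc8a1 were thus above Trpv6 in both libraries, while the other 4 pump and exchanger genes of the list, among them Slc8a2 and Slc8a3, were below it, at 0.15 to 0.42 TPM. Other entry routes included the mechanosensitive channel Piezo1 at 15.20 and 12.69 TPM and the osmosensitive channel Trpv4 at 14.64 and 9.59 TPM. In this list of exit and entry genes 7 of 11 were detected. Of the calcium store genes 11 of 12 were, led by the chaperone Calr at 734 and 558 TPM and the pump Atp2a2 at 48.76 and 26.46 TPM.

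Among the other EF-hand proteins 7 of 9 were detected. S100a11, a small calcium-binding protein of the S100 family, was at 906 and 1101 TPM, above Calb1 in both libraries. The buffers closest in role to the calbindins were at the bottom, with Calb2 (calretinin) at 0.08 and 0.10 TPM and Pvalb (parvalbumin) with 0 counts in both libraries. Of 7 genes in the list with a mean of at least 1 TPM, 1 had a lower value in replicate 2, and the median log2 ratio was 0.29. Of all detected protein-coding genes 76.3% were lower in replicate 2, and of those under 1000 nt, the length class of S100a11, 24.2% were.

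For magnesium, 9 of 13 genes were detected. Trpm7, the widely expressed relative of Trpm6, was at 47.75 and 23.64 TPM. Fxyd2, a regulator of the sodium pump, was at 116 and 95.5 TPM. Cnnm2, a basolateral magnesium handling protein, was at 4.22 and 2.26 TPM. Of the claudins that set paracellular passage of calcium and magnesium 5 of 6 were detected. Cldn16 was at 2.57 and 2.36 TPM, Cldn19 at 8.14 and 4.30 TPM, and Cldn14 had 0 counts in both libraries.

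The vitamin D list had 9 of 10 genes detected. The enzymes Cyp27b1 and Cyp24a1, which are not part of that list, were not detected. The receptor Vdr was at 2.18 and 1.08 TPM and its partner Rxra at 4.87 and 4.40 TPM. Cyp2r1, the main vitamin D 25-hydroxylase of the liver, was at 1.40 and 1.54 TPM. Lrp2 (megalin), which takes up the hormone precursor in the proximal tubule, was at 10.72 and 4.11 TPM. Lrp2 and Vdr had lower values in replicate 2, as had Kl and 76.3% of all detected protein-coding genes. The list was led by the protein disulfide isomerase Pdia3 at 415 and 410 TPM.

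In the parathyroid hormone and calcitonin list 7 of 14 genes were detected. The hormone gene Pth and Gcm2, the regulator of parathyroid development, had 0 counts in both libraries. A count of 0 allows 0.249 and 0.216 TPM for the short transcript of Pth. Pthlh, the second ligand of Pth1r, was at 1.02 and 0.86 TPM. The signalling proteins beyond the receptors were abundant, with Gnas at 1241 and 1055 TPM and Gna11, which couples to Casr, at 70.11 and 58.20 TPM.

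In the FGF23 and klotho list 6 of 10 genes were detected, and all 6 had a lower value in replicate 2, as had 76.3% of all detected protein-coding genes. The receptor Fgfr1 was at 97.64 and 65.21 TPM and Fgfr2 at 108.8 and 49.1 TPM, both far above Kl. The ligand Fgf23 was at 0 and 0.03 TPM, from 0 and 1 count, and the related co-receptor Klb at 0.02 and 0 TPM, from 1 and 0 counts. Of the phosphate transport genes 6 of 9 were detected. Slc34a1, the proximal sodium-phosphate cotransporter on which parathyroid hormone and FGF23 act, was at 21.33 and 7.97 TPM. Slc34a3 was at 0.26 and 0.43 TPM. The scaffold Slc9a3r1 was at 86.4 and 61.1 TPM.

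**Figure D5:**
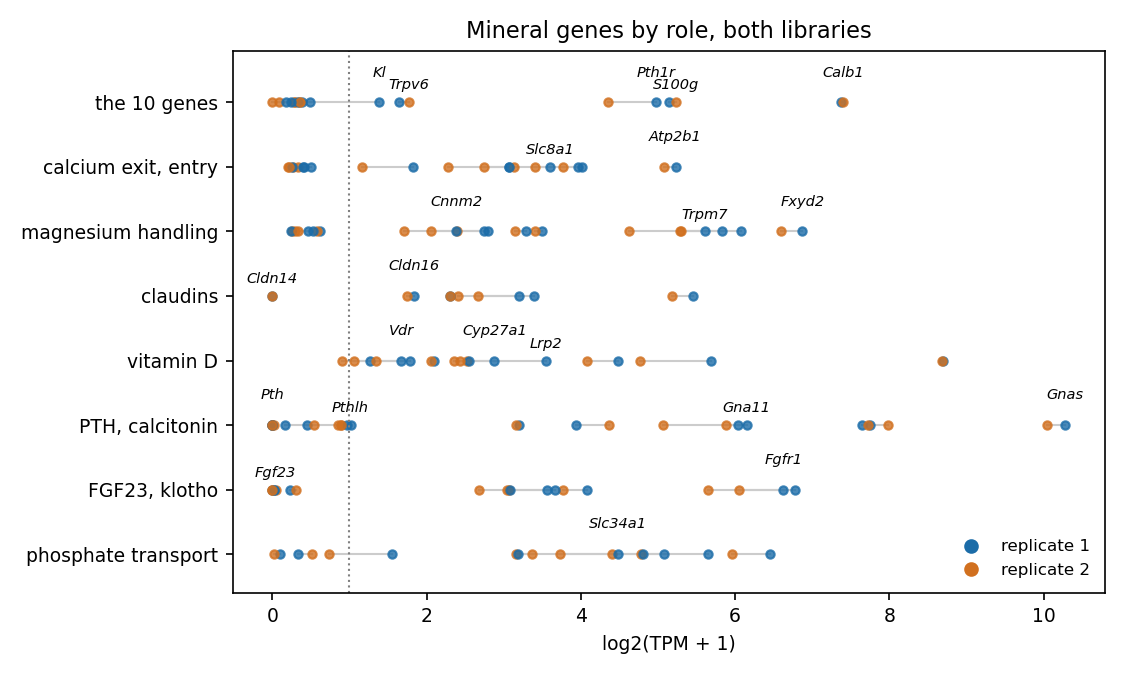
Levels as log2(TPM + 1) of the 10 genes and of their partners in 7 of the lists, in replicate 1 (blue) and replicate 2 (orange), with a line joining the libraries of each gene. The dotted line is 1 TPM. The calcium channels, vitamin D enzymes and Kl sit at the left, while the signalling genes Gnas and Fgfr1 sit at the right.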

How the data were processed

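Whole-kidney total RNA of 2 libraries was measured. The tables were made on assembly mm10 with annotation release M4 from a transcriptome alignment, per the notes deposited with each sample; aligner, quantifier and strand setting: not given in the sources used here. Per the file headers, each table gives expected counts, TPM, FPKM, and bounds of an interval on the TPM scale (a signal that is never negative, of a confidence level not given), and the transcript tables give each transcript's percent of its gene. The deposited TPM are scaled over all features, spike-ins included (4.34% and 4.95% of counts), so they are relative levels. Gene symbols, coordinates and exons came from GENCODE M21 on GRCm38, the same assembly in a later release; 42462 of 43346 genes matched. Promoters came from RefSeq on GRCm38.p6. Trpv coding sequences came from M21 transcripts.

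The members and lists were chosen with earlier results of these data known. Named genes are every member, the stated hormone, receptor and binding partners, and up to 4 highest and 2 lowest genes of each list. Analyses ran in Python 3.11.15 with pandas 2.3.3 and scipy 1.17.1. No test between groups exists. Size factors of edgeR 4.0.16 (TMM) and DESeq2 1.42.0, from expected counts rounded to whole numbers, served only as other scalings. Detection meant at least 1 TPM in both libraries. Ratio intervals are exact conditional binomial at 95%, and 0 counts allow 3. Scripts were tested on simulated data. The replicates are labelled as biological and as separate collections, but they carry the same donor, pup and dam identifiers. Biological and technical variation cannot be told apart in the spread between them.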

Additional observations from a re-analysis of the deposited data

How the results depend on the processing

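The count of 4 detected genes was the same with a floor of 0.5 or 2 TPM, in the mean of the libraries, with posterior mean TPM, FPKM, or TPM rescaled after spike-in, mitochondrial, haemoglobin and number-named features were dropped, and it became 9 when more than 3 expected counts in both libraries sufficed. Leaving out 1 library gave 4 to 5. The count of 0 genes apart between the libraries became 1 (Kl) with no floor and was 0 under the other alternatives run. All of those kept a floor that Kl, at 1.61 TPM in its higher library, did not reach, so they could not call Kl. The Calb1 to S100g ratio, 4.69 as the mean of both libraries, was 4.01 with the length of the longest transcript. The Pth1r to Casr ratio, 93.1 as a mean, was 50.5 with posterior mean TPM and 181.8 with the longest transcript, and rests on 21 and 8 Casr counts. Of 20 values of the members' mean level under posterior mean or rescaled TPM, 12 stayed within 1 SD between libraries and 8 moved. With 2 libraries, leaving 1 out cannot move a mean by 1 SD and says nothing about stability. The log2 ratio between libraries kept its sign under every scaling run except for Cyp27b1 (-0.15 to 0.04) and Casr (-0.41 to 0.08). It ran from -2.42 to -0.81 for Kl and from 0.03 to 0.32 for Calb1. For Pth1r it ran from -0.64 to -0.32, and was smallest in size with the TMM and DESeq2 factors. The range was 0.09 to 0.37 for S100g and 0.14 to 0.43 for Trpv6, with the highest values under TMM. No paired analysis was possible because there is 1 group. Depth limits the genes with 25 counts or fewer in a library, and with 2 libraries no spread is well estimated.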
